A study of Mus musculus with 10 samples.

Results

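Transcripts of 8 glycoproteins of the extracellular matrix, *Comp*, *Fn1*, *Abi3bp*, *Fbn1*, *Fbln5*, *Fbln1*, *Efemp1* and *Emilin1*, were followed across *Grem1*-lineage and *Lepr*-lineage cells of the mouse hind limb. They were chosen by name from the 29183 genes listed for both lineages, and all 8 were found there. The *Grem1*-lineage table used here runs in alphabetical order, ends in an incomplete row among the symbols that begin with Gm, and holds no later symbol, whereas the *Lepr*-lineage table lists 50508 genes. All totals, levels and gene lists below cover the shared genes alone, and genes later in the alphabet were not analysed here. In *Grem1-TdT* mice (C57BL/6), a creERT under *Grem1* control is activated by tamoxifen and switches on TdTomato in *Grem1*-expressing cells and their progeny. Tamoxifen was given in chow for 2 weeks, starting when the mice were 5 to 6 weeks old, and articular cartilage (AC) and growth plate (GP) were dissected. Which of these tissues a plate held was not given in the labels. In the age-paired *Lepr-TdT* mice (C57BL/6), a constitutive Cre under *Lepr* control labels cells without tamoxifen, and whole bones were taken. Live TdTomato-positive cells of both lineages were sorted singly into 96-well plates, and a gate against CD45, Ter119 and CD31 was described for the *Lepr* lineage alone. Lineage, tissue, digestion and gate changed together and cannot be told apart.

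Matrix glycoproteins link collagen fibrils, elastic fibres and receptors on the cell surface. Cartilage oligomeric matrix protein (encoded by *Comp*), a pentamer of the thrombospondin family, binds collagens and is abundant in cartilage and tendon, and fibronectin (*Fn1*) carries cell adhesion through integrins. *Abi3bp* encodes a secreted protein named for its binding to the adaptor ABI3. Fibrillin 1 (*Fbn1*) builds the microfibrils along which elastin is laid down, fibulin 5 (*Fbln5*) is needed to assemble elastic fibres, and emilin 1 (*Emilin1*) sits between elastin and microfibrils. Fibulin 1 (*Fbln1*) and fibulin 3 (*Efemp1*) are further members of the fibulin family.

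Unique molecular identifiers (UMIs) were counted, so that PCR copies of a molecule entered once. Wells in which fewer than 350 genes were detected were dropped, leaving 684 of 768 *Grem1*-lineage and 160 of 162 *Lepr*-lineage cells on 8 and 2 plates. Genes were counted over each lineage's own table for this step, which is the longer one for the *Lepr* lineage, so the minimum was easier to reach there. *Grem1*-lineage cells were divided by their own transcripts. The Clu-Cilp group held the 414 cells in which the UMIs of *Clu*, *Cilp* and *1500015O10Rik* together exceeded those of *Cnmd*, and the Cnmd group held the other 270. UMIs were then summed per plate and group, and the plate was the replicate. The labels do not say how many mice lie behind the plates, so p-values measure the spread between plates. The sums held 51229 to 78395 UMIs in the Clu-Cilp group, 57206 to 106289 in the Cnmd group, and 64310 and 59981 in the *Lepr* lineage, with 1217, 2218.5 and 505 UMIs in the median cell. All 9 chondrocyte markers tested were lower in the *Lepr* lineage than in the *Grem1* lineage, 6 of 7 marrow stromal markers tested were higher, and none of the 4 endothelial markers listed passed the filter on low counts. *Grem1*-lineage plates 1, 2 and 4 stood apart from plates 5 to 9 in some transcripts. This division was taken from these same data, and the labels do not explain it.

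*Comp* and *Fn1* were abundant in both *Grem1*-lineage groups and low in the *Lepr* lineage, whereas *Fbln1*, *Fbln5* and *Fbn1* were higher in the *Lepr* lineage. *Abi3bp* was 17.3-fold higher in the Clu-Cilp group than in the Cnmd group, and the *Lepr* lineage was also above the Cnmd group. *Emilin1* was higher in the Cnmd group than in the other groups, in calls that did not hold under all settings. *Efemp1* had few UMIs everywhere. Levels below are CPM of a plate's summed cells, that is UMIs relative to all UMIs of the sum, after TMM scaling over all 18 sums. They are compared between groups of 1 gene and never between genes. Fold changes are log2 values from edgeR's quasi-likelihood fit of each comparison, with p-values adjusted over all genes tested by the Benjamini-Hochberg method and called below 0.05. In summed cells, fewer cells with a transcript and less RNA per cell cannot be told apart. All 3 comparisons with the *Lepr* lineage share its 2 plates. Where 1 of these is left out, the other is assumed to vary like the *Grem1*-lineage plates, and whether the call holds then says nothing about the spread within the *Lepr* lineage.

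**Figure D1:**
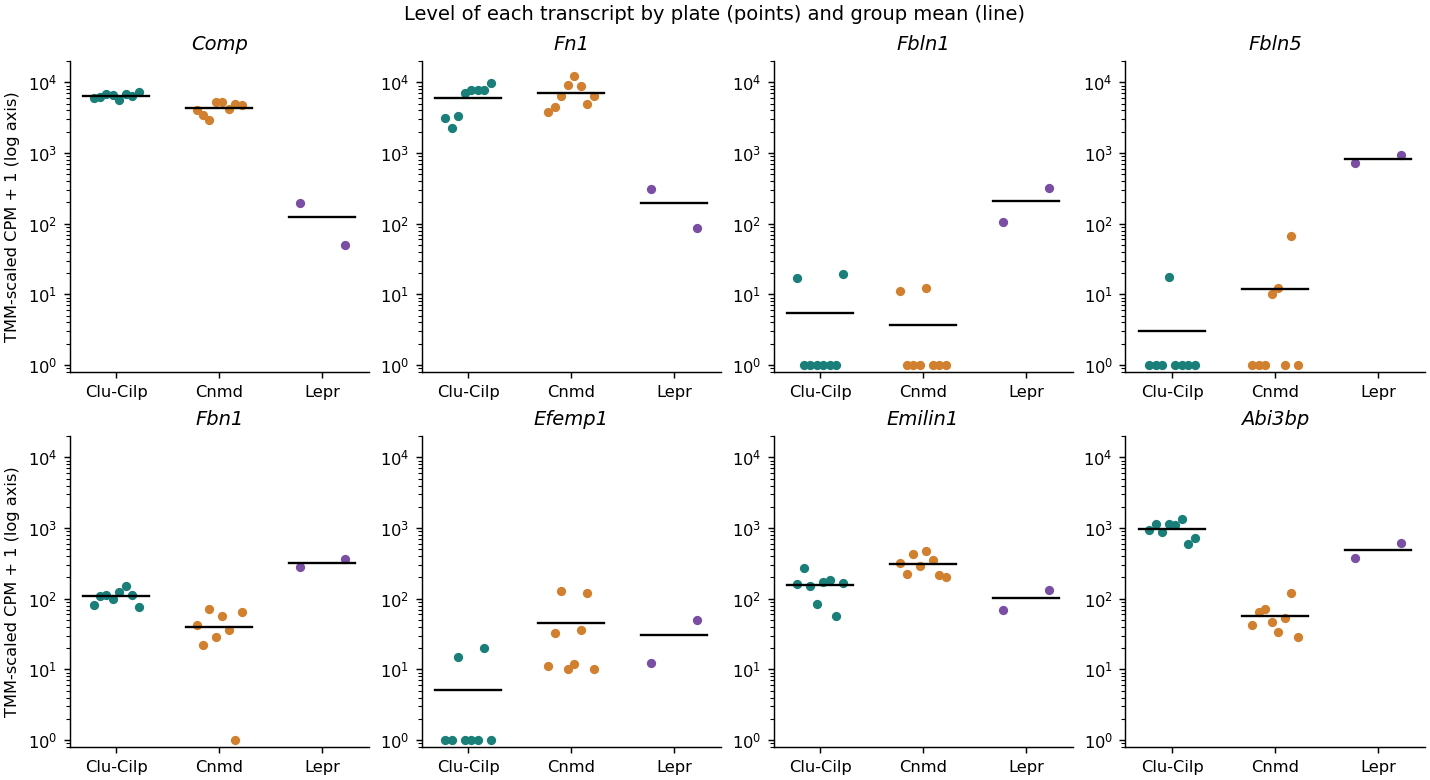
Level of each transcript (TMM-scaled CPM plus 1, log axis) on each plate (points) of the Clu-Cilp group (8 plates), the Cnmd group (8 plates) and the *Lepr* lineage (2 plates), with the group mean as a line. The lowest *Grem1*-lineage plate had 2923 CPM of *Comp* and 2290 CPM of *Fn1*, and the highest *Lepr*-lineage plate 196 and 311 CPM, while *Fbln5* had at least 725 CPM on both *Lepr*-lineage plates and at most 66.4 CPM on the others.

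Within the *Grem1*-lineage groups the coefficient of variation of *Comp* over plates was 8.35% in Clu-Cilp and 19.5% in Cnmd cells. It was the lowest of the 8 transcripts in both groups. All others except *Fn1* had far fewer UMIs, where counting error alone widens this value. In the Clu-Cilp group the lowest plate had 5632 CPM, the median was 6499 and the highest plate 7263 (mean 6473 ± 540, SD, n = 8). In the Cnmd group the lowest plate had 2923 CPM, the median was 4518 and the highest plate 5219 (mean 4368 ± 851, SD, n = 8). The groups did not overlap, and the Clu-Cilp sum was the higher one on 8 of 8 plates. *Comp* was 1.48-fold higher in the Clu-Cilp group (log2 fold change 0.57, SE 0.14, adjusted p = 0.0028), in a comparison in which 41.1% of the 1071 genes tested were called and 12.5% did not overlap. The exact sign-flip permutation test over plates gave a two-sided p of 0.0078, the smallest that 8 plates allow. The call depended on the scaling. With library sizes in place of TMM factors the median of all genes moved from -0.02 to -0.38 and the *Comp* difference to 0.22 (adjusted p = 0.17), while its distance from that median was 0.59 and 0.60. The ranges then overlapped (4490 to 6493 and 3429 to 5421 CPM), and on plates 5 and 6 the Clu-Cilp sum was the lower one. *Cytl1* alone had 200385 CPM in Clu-Cilp and 26570 CPM in Cnmd sums in this fit, and with the 20 most abundant genes left out of the normalisation the *Comp* difference was 0.60 (adjusted p = 0.0023). The call was also lost with no filter on low counts (0.42, adjusted p = 0.24) and with cells divided by *Clu* against *Cnmd* alone (0.39, adjusted p = 0.062).

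The Cnmd sums of *Comp* ran from 2923 to 4124 CPM on plates 1, 2 and 4 and from 4256 to 5219 CPM on plates 5 to 9, without overlap. The Clu-Cilp sums of both sets overlapped, at 5952 to 6946 and 5632 to 7263 CPM. *Comp* was higher in the Clu-Cilp group within either set, by 0.87 on plates 1, 2 and 4 (adjusted p = 0.0058) and by 0.46 on plates 5 to 9 (adjusted p = 0.023), and the difference between these values was not tested. Without TMM factors the Cnmd sums of the sets overlapped, at 3429 to 5024 and 4283 to 5421 CPM.

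Nearly every *Grem1*-lineage cell carried *Comp*. A UMI was found in 95.2% of Clu-Cilp cells (394 of 414, Clopper-Pearson 95% interval 92.6 to 97.0%) and in 96.3% of Cnmd cells (260 of 270, 93.3 to 98.2%). These intervals cover counting error only. The median cell held 5 and 9 UMIs, in cells of unequal depth. To set groups side by side at equal depth, cells were thinned to 529 UMIs, and cells below that depth were left out, which were 2 *Grem1*-lineage and 83 of 160 *Lepr*-lineage cells. The shares of *Comp* were then 83.1% (79.1 to 86.5%) and 81.0% (75.8 to 85.5%), and the plates overlapped. Of the 84 *Grem1*-lineage wells left out for few genes, 61 (72.6%) also held a *Comp* UMI.

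In the *Lepr* lineage *Comp* stood at 196 CPM on plate 1 and 48.5 CPM on plate 2, below every *Grem1*-lineage plate. It was 42.3-fold lower than in all *Grem1*-lineage cells (log2 fold change -5.40, SE 0.49, adjusted p = 1.04e-06), in a comparison in which 29.0% of the 2944 genes tested were called and 38.1% did not overlap. Against the Clu-Cilp and Cnmd groups alone the values were -5.52 (SE 0.56) and -5.01 (SE 0.52). Among the genes tested in these comparisons, 37.8% of 1580 and 33.0% of 1941 were called, and 41.1% and 39.1% did not overlap. The difference from all *Grem1*-lineage cells was -6.82 without *Lepr* plate 1 and -4.79 without *Lepr* plate 2.

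A *Comp* UMI was found in 9 of 160 *Lepr*-lineage cells (5.62%, 2.60 to 10.4%), 6 on plate 1 and 3 on plate 2. These cells held 21 UMIs in all, and a single cell of plate 1 held 9 of them. That cell had 1003 UMIs, among them 4 of *Cytl1*, a cytokine of cartilage, 4 of *Cxcl12*, the chemokine of marrow stroma, and 0 of *Acan* and *Col2a1*, which encode aggrecan and collagen II. Without it the unscaled *Comp* level of the pooled *Lepr* lineage was 97.3 instead of 169 CPM. The 9 cells together held 13994 CPM of *Cytl1*, against 1298 CPM in the other 151, and 10671 CPM of *Cxcl12*, against 25653 CPM. *Col2a1* stood at 895 CPM in the 9 cells, from 14 UMIs in 2 of them, against 27.6 CPM in the others. *Acan* stood at 256 CPM, from 4 UMIs in 1 cell, against 9.20 CPM. The median depth of the 9 cells was 1003 UMIs, against 498. The part of RNA from other cells in these UMIs was not tested.

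*Fn1* varied more between plates. Among Clu-Cilp plates the lowest had 2290 CPM, the median was 7387 and the highest plate 9677 (mean 6096 ± 2774, SD, n = 8). In the Cnmd group the lowest plate had 3744 CPM, the median was 6409 and the highest plate 12203 (mean 7017 ± 2866, SD, n = 8). The groups overlapped, and the Clu-Cilp sum was the lower one on 6 of 8 plates. The difference of -0.21 (SE 0.29, adjusted p = 0.58) was not larger than the spread between plates, and the exact sign-flip permutation test gave a two-sided p of 0.27.

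In Clu-Cilp cells the spread of *Fn1* ran between the plate sets. Plates 1, 2 and 4 had 3082, 2290 and 3287 CPM, and plates 5 to 9 had 7044, 7885, 7770, 7731 and 9677 CPM. The sets did not overlap, either with TMM factors (means 2886 ± 526.3 and 8021 ± 983 CPM) or without them (2181 to 3072 and 5720 to 7930 CPM). The median Clu-Cilp cell showed the same division, at 1364 to 1631 CPM on plates 1, 2 and 4 and 2911 to 3891 CPM on plates 5 to 9, with median depths of 1070.5 to 1209.5 and 1086 to 1392 UMIs. In Cnmd cells the sets overlapped, at 3744 to 6502 and 4890 to 12203 CPM. *Fn1* was lower in Clu-Cilp than in Cnmd cells on plates 1, 2 and 4 alone (-0.76, adjusted p = 0.043), and on plates 5 to 9 the value was -0.0028 (adjusted p = 0.99). The difference between both values was not tested. The plate sets were taken from these same data, with *Fn1* among the transcripts that differed. Their gap in *Fn1* therefore gives no independent support to the division, and the share of all genes that separate the sets was not counted.

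**Figure D2:**
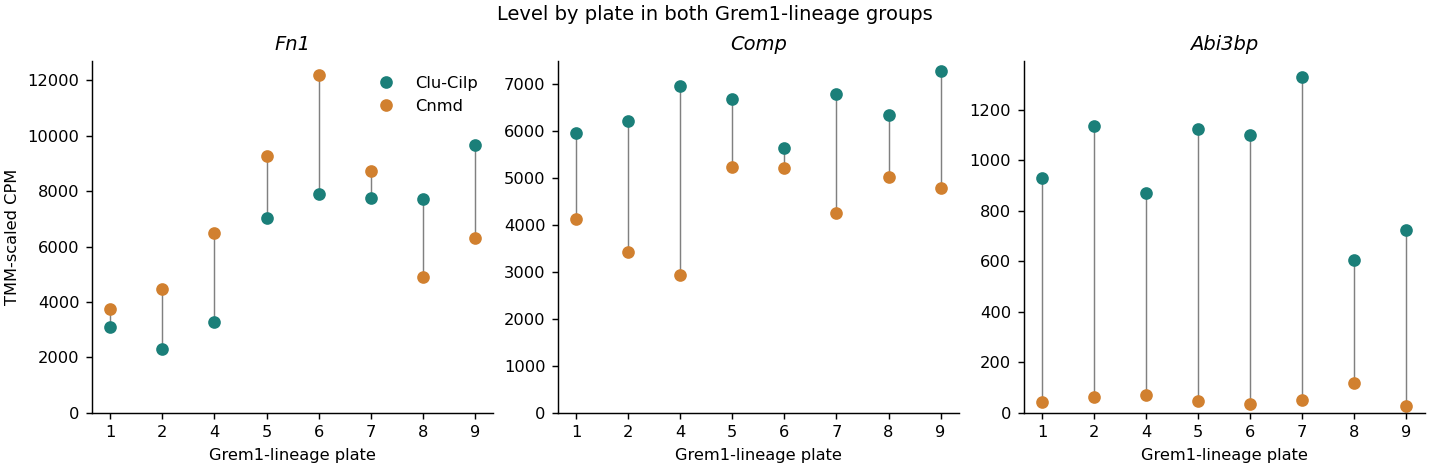
Level (TMM-scaled CPM, axes from 0) of *Fn1*, *Comp* and *Abi3bp* in the Clu-Cilp and Cnmd sums of each *Grem1*-lineage plate, with a line joining both sums of a plate. *Fn1* in Clu-Cilp cells is at most 3287 CPM on plates 1, 2 and 4 and at least 7044 CPM on plates 5 to 9, and *Comp* and *Abi3bp* are higher in the Clu-Cilp sum on all 8 plates.

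A *Fn1* UMI was found in 85.7% of Clu-Cilp cells (82.0 to 89.0%) and 98.1% of Cnmd cells (95.7 to 99.4%). With cells thinned to 529 UMIs the shares were 68.5% (63.8 to 73.0%) and 81.0% (75.8 to 85.5%), but single plates overlapped, at 54.9 to 86.5% and 66.7 to 92.5%. The UMIs were concentrated in few cells. In the Clu-Cilp group 10.6% of cells and in the Cnmd group 14.1% of cells held 50% of all *Fn1* UMIs, where the same portion of *Comp* UMIs took 16.7% and 20.4% of cells. The fullest cells held 152 and 255 *Fn1* UMIs.

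In the *Lepr* lineage *Fn1* stood at 311 CPM on plate 1 and 84.9 CPM on plate 2, below every *Grem1*-lineage plate. It was 33.0-fold lower than in all *Grem1*-lineage cells (-5.05, SE 0.65, adjusted p = 3.51e-05), and the values against the Clu-Cilp and Cnmd groups were -4.75 (SE 0.78) and -5.01 (SE 0.67). Without *Lepr* plate 1 the first value was -6.36 and without *Lepr* plate 2 it was -4.45. Its 34 UMIs lay in 17 cells (10.6%, 6.31 to 16.5%), of which 2 also held *Comp*. These 17 cells together held 2947 CPM of *Bglap*, the osteoblast product osteocalcin, against 232 CPM in the other 143. This pooled *Bglap* level rests on few cells, since a *Bglap* UMI was found in 6 of the 17 and 16 of the 143. The cell with the most *Fn1* had 4283 of the 29520 UMIs of the 17 cells. Together the 17 cells held 11721 CPM of *Cxcl12*, against 27519 CPM, at a median depth of 868 against 498 UMIs. Of cartilage transcripts they held 6233 CPM of *Cytl1*, against 1857 CPM, with a UMI in 9 of the 17 and 51 of the 143. *Col2a1* stood at 237 CPM, from 7 UMIs in 2 cells, against 106 CPM, and *Acan* at 0 against 52.8 CPM.

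*Abi3bp* separated the *Grem1*-lineage groups. Over Clu-Cilp plates the lowest had 603 CPM, the median was 1016 and the highest plate 1329 (mean 977 ± 240, SD, n = 8). Over Cnmd plates the lowest had 27.6 CPM, the median was 49.1 and the highest plate 120 (mean 56.9 ± 29.3, SD, n = 8). Every Clu-Cilp plate lay above every Cnmd plate. The log2 fold change was 4.11 (SE 0.24, adjusted p = 4.70e-11), and it was 4.04 on plates 1, 2 and 4 and 4.21 on plates 5 to 9. *Abi3bp* passed the filter on low counts here only through the Clu-Cilp group. It was thus tested because it was high there, and the adjusted p-value is no independent evidence. The exact sign-flip permutation test gave a two-sided p of 0.0078, with 8 of 8 plates in this direction. This difference was already known when the 8 transcripts were chosen and gives no independent support to the choice.

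In the *Lepr* lineage *Abi3bp* stood at 380 CPM on plate 1 and 606 CPM on plate 2. Both plates lay above all Cnmd plates, and plate 2 was as high as the lowest Clu-Cilp plate. The *Lepr* lineage was 9.60-fold above the Cnmd group (3.26, SE 0.36, adjusted p = 1.01e-05). Against the Clu-Cilp group the value was -0.82 (SE 0.32, adjusted p = 0.057), which passed the threshold without *Grem1* plate 8 (-0.92, adjusted p = 0.029) or plate 9 (-0.90, adjusted p = 0.044) and was -0.12 (adjusted p = 0.78) without TMM factors. Against both *Grem1*-lineage groups pooled it was 0.22 (SE 0.32, adjusted p = 0.63), with a turned sign of -0.20 without *Lepr* plate 2.

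An *Abi3bp* UMI was found in 52.2% of Clu-Cilp cells (47.2 to 57.1%), 13.3% of Cnmd cells (9.52 to 17.98%) and 33.8% of *Lepr*-lineage cells (26.5 to 41.6%). With cells thinned to 529 UMIs the shares were 32.2% (27.7 to 36.9%), 4.46% (2.33 to 7.66%) and 31.2% (21.1 to 42.7%). Over plates these shares ran from 18.6 to 47.1% in Clu-Cilp cells, from 0 to 12.1% in Cnmd cells and from 20 to 43.2% in the *Lepr* lineage, so that the Cnmd plates lay below all others. The *Lepr*-lineage values at this depth come from 77 of 160 cells. In the *Lepr* lineage the 54 cells with *Abi3bp* held 828 CPM of *Col1a1*, the collagen I gene of osteoblasts and fibroblasts, against 6688 CPM in the other 106. They also held less *Cxcl12* (20161 against 27598 CPM) and less *Adipoq*, which encodes adiponectin (4560 against 5825 CPM). These are pooled levels, and a *Col1a1* UMI was found in 20 of the 54 and 45 of the 106 cells. The cells with *Abi3bp* were also deeper, with a median of 710.5 against 429.5 UMIs.

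*Fn1* and *Abi3bp* were the only pair of the 8 in which each was found in 10 to 90% of Clu-Cilp cells thinned to 796 UMIs. Both were found in 117 of 354 such cells, only *Fn1* in 172, only *Abi3bp* in 38 and neither in 27. The log odds ratio of finding them together was -0.68 ± 0.68 (SD, n = 8 plates), and it was above 0 on 1 of 8 plates. In cells not thinned it was 0.14 ± 0.64 and above 0 on 5 of 8 plates, so its sign depended on how depth was treated.

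*Fbln5*, *Fbln1* and *Fbn1* were the 3 transcripts higher in the *Lepr* lineage. Because they moved together, the 250 bases before a start site of each are shown, 5′ to 3′ on the strand of the gene, from RefSeq (GRCm38.p6). They lie at chr12:101819120-101819369 (minus strand) for *Fbln5*, chr15:85205699-85205948 (plus strand) for *Fbln1* and chr2:125506439-125506688 (minus strand) for *Fbn1*. Their start sites are 64, 0 and 1555 bases from the 5′ end of the gene in the GENCODE annotation. Capitals mark GGGCGG, the GC box, on either strand.
Fbln5: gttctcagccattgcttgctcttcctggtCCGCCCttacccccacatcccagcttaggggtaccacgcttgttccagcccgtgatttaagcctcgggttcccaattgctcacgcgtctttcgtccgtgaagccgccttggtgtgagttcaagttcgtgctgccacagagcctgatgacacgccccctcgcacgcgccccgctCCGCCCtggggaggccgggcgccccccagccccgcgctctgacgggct
Fbln1: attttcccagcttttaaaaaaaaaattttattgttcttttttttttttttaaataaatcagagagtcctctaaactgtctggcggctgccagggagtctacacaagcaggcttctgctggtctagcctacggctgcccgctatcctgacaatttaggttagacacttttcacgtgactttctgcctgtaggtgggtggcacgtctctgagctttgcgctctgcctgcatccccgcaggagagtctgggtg
Fbn1: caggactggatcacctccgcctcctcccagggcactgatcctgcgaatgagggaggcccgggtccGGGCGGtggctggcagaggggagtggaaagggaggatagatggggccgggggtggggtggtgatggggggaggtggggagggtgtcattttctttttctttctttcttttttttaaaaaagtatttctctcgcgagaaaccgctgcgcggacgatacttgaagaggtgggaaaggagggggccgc
The *Fbln5* window held 2 GC boxes, the *Fbn1* window 1 and the *Fbln1* window 0, and 32.7% of all 32851 windows of this length held at least 1. TATAAA, the TATA box, was also searched on both strands and was in none of the 3, against 12.4% of all windows. GC content was 65.2% for *Fbln5*, 59.2% for *Fbn1* and 46.4% for *Fbln1*, against a median of 52.4% over all windows. No motif searched was present in all 3 windows.

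*Fbln5* had 725 CPM on *Lepr* plate 1 and 946 CPM on plate 2, from 63 and 78 UMIs. In the Clu-Cilp group 7 of 8 plates held no UMI and plate 5 held 1 (16.5 CPM). In the Cnmd group plate 8 held 5 UMIs (66.4 CPM), plates 5 and 6 held 1 each and the other plates none. Both *Lepr*-lineage plates lay far above all others. The log2 fold change against all *Grem1*-lineage cells was 6.73 (SE 0.54, adjusted p = 2.92e-07), and 7.77 without *Grem1* plate 8. Against the Clu-Cilp group it was 7.79 (SE 0.49) and against the Cnmd group 6.32 (SE 0.58), the latter 7.62 without *Grem1* plate 8. As counts, *Fbln5* UMIs were 600.8 times as frequent in the *Lepr* lineage as in the Clu-Cilp group (Clopper-Pearson 95% interval 106 to 23896), on 1 UMI in the latter. Against the Cnmd group the ratio was 106 (50.002 to 268), on 7 UMIs. The intervals of these count ratios, here and below, treat each UMI as independent and leave out the spread between cells and plates.

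A *Fbln5* UMI was found in 71 of 160 *Lepr*-lineage cells (44.4%, 36.5 to 52.4%), although these were the shallowest cells. It was found in 1 of 414 Clu-Cilp cells (0.242%) and 6 of 270 Cnmd cells (2.22%). At 529 UMIs, with 77 *Lepr*-lineage cells deep enough, the shares were 42.9% (33 of 77, 31.6 to 54.6%), 0.242% and 0.743%. The *Lepr*-lineage plates had 37.5 and 48.6%, and no *Grem1*-lineage plate had more than 3.03% in either group. The 71 cells held 28465 CPM of *Cxcl12*, against 19470 CPM in the other 89, and 6030 CPM of *Adipoq*, against 4390 CPM. They held 825 CPM of *Col1a1* and 118 CPM of *Bglap*, against 6269 and 1571 CPM, at a median depth of 575 against 446 UMIs. These are pooled levels. A *Col1a1* UMI was found in 29 of the 71 and 36 of the 89 cells, and a *Bglap* UMI in 6 and 16.

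*Fbln1* had 104 CPM on *Lepr* plate 1 and 315 CPM on plate 2, from 9 and 26 UMIs. In each *Grem1*-lineage group 2 plates held 1 UMI and 6 held none, so that the highest of them had 18.6 CPM. The groups did not overlap. The log2 fold change was 5.59 (SE 0.70, adjusted p = 2.92e-05) against all *Grem1*-lineage cells and 5.75 (SE 0.69) against the Cnmd group. Without *Grem1* plate 1 the first value was 6.19 and without *Lepr* plate 1 it was 6.10, and without *Lepr* plate 2 *Fbln1* fell below the filter. In the comparison with the Clu-Cilp group it was below the filter, and as counts it was 74.6 times as frequent in the *Lepr* lineage (19.2 to 640, on 2 UMIs in Clu-Cilp cells). Of the *Lepr*-lineage cells 26 (16.2%, 10.9 to 22.9%) held a UMI, and 14.3% (11 of 77, 7.35 to 24.1%) did at 529 UMIs, where 0 of 413 Clu-Cilp cells did, which allows a share of up to 0.726%.

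*Fbn1* was found in all groups and was highest in the *Lepr* lineage, at 276 CPM on plate 1 and 364 CPM on plate 2. Clu-Cilp plates had 74.3 to 151 CPM, with a median of 110.2. In the Cnmd group plate 8 had none, the median was 37.9 CPM and the highest plate had 71.3 CPM. No group overlapped another on this scale, while without TMM factors the *Grem1*-lineage groups did (60.9 to 115 and 0 to 83.6 CPM). The *Lepr* lineage was 4.74-fold above all *Grem1*-lineage cells (2.25, SE 0.31, adjusted p = 6.07e-05), with values of 1.72 (SE 0.30) against the Clu-Cilp group and 3.09 (SE 0.47) against the Cnmd group. Between the *Grem1*-lineage groups *Fbn1* was below the filter, with 49 and 28 UMIs. The Clu-Cilp level was the higher one on 8 of 8 plates (mean log2 difference 1.44 ± 1.07, exact sign-flip permutation test, two-sided p = 0.0078). The difference was 0.85 with 50 in place of 10 CPM added before the logarithm, 7 of 8 plates kept the direction (p = 0.016 in the same exact test) when cells within 5 UMIs of the dividing line were left out, and plate 9 turned without TMM factors (60.9 against 65.9 CPM). Without the filter the fitted value was 1.25 (adjusted p = 0.045).

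A *Fbn1* UMI was found in 25.6% of *Lepr*-lineage cells (19.1 to 33.1%), 8.94% of Clu-Cilp cells (6.37 to 12.1%) and 8.52% of Cnmd cells (5.48 to 12.5%). At 529 UMIs the shares were 24.7% (19 of 77, 15.6 to 35.8%), 4.84% (2.98 to 7.38%) and 3.35% (1.54 to 6.26%). The *Lepr*-lineage plates had 24.3 and 25.0%, above the highest plate of either *Grem1*-lineage group (9.30 and 8.11%), and these groups overlapped. *Fbln1* and *Fbln5* passed the filter on low counts only through the *Lepr* lineage wherever they were tested. The same was true of *Fbn1* against the Clu-Cilp and Cnmd groups and of *Abi3bp* against the Cnmd group. Between the *Grem1*-lineage groups *Abi3bp* passed only through the Clu-Cilp group and *Emilin1* only through the Cnmd group. *Comp* passed only through the *Grem1*-lineage side in all 3 comparisons with the *Lepr* lineage. *Fn1* and *Emilin1* did so against the Clu-Cilp and Cnmd groups. A transcript that passes in this way was selected for being high on 1 side. Its adjusted p-value is therefore no independent evidence, and these calls give no support as a count. Against all *Grem1*-lineage cells *Fbn1*, *Fn1*, *Emilin1* and *Abi3bp* passed through either lineage. Among the 160 *Lepr*-lineage cells 22 held both *Fbln5* and *Fbn1*, 26 held *Fbln5* and *Abi3bp*, 21 held *Fbn1* and *Abi3bp*, and 14 held *Fbln1* and *Fbln5*, while 0 held both *Fbln1* and *Fn1*.

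**Figure D3:**
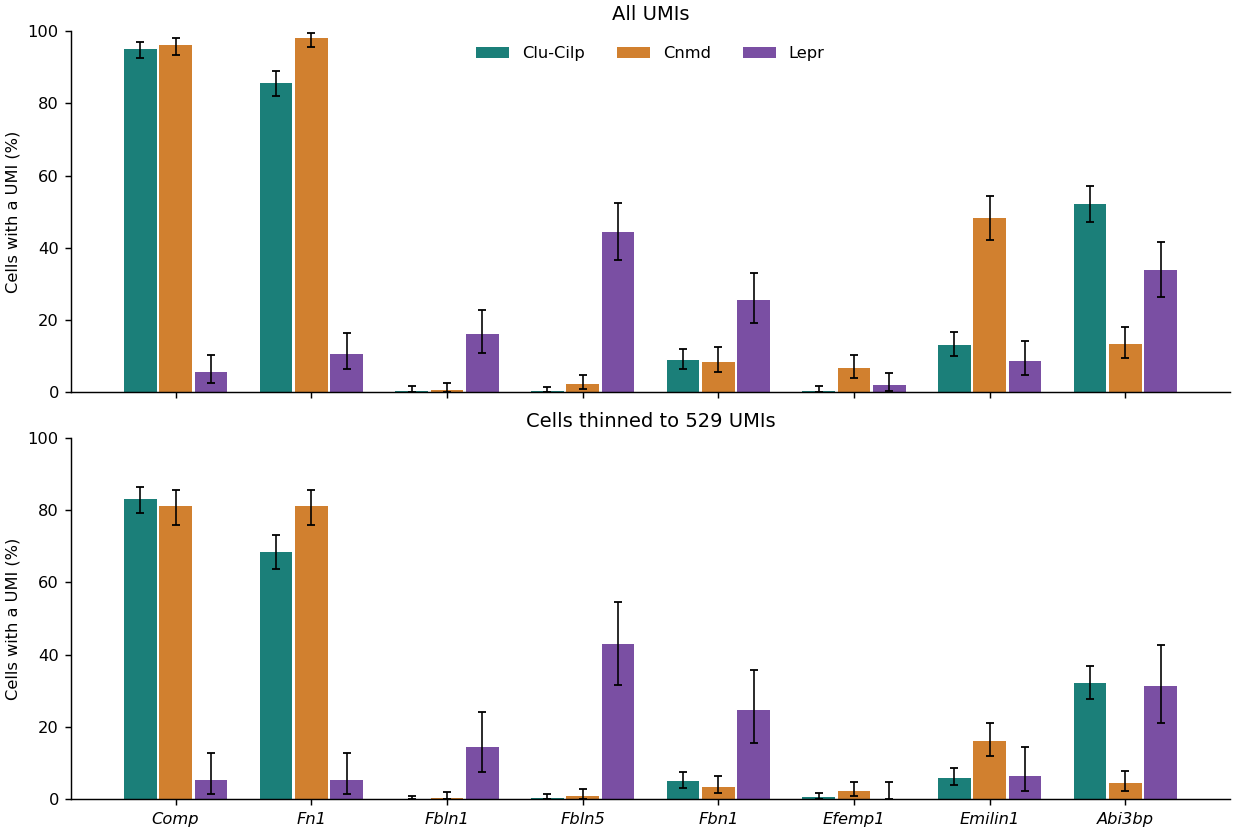
Share of cells with at least 1 UMI of each transcript (percent, bars from 0) in Clu-Cilp, Cnmd and *Lepr*-lineage cells, with Clopper-Pearson 95% intervals, from all UMIs of all kept cells (upper panel) and with cells thinned to 529 UMIs (lower panel), where shallower cells are left out, among them 83 of 160 *Lepr*-lineage cells. *Emilin1* in Cnmd cells is at 48.1% in the upper and 16.0% in the lower panel, and *Fbln5* in the *Lepr* lineage at 44.4% of 160 and 42.9% of 77 cells.

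*Emilin1* was highest in the Cnmd group. The lowest Cnmd plate had 202 CPM, the median was 306 and the highest plate 477 (mean 313 ± 101, SD, n = 8). The lowest Clu-Cilp plate had 56.6 CPM, the median was 165 and the highest plate 275 (mean 157 ± 66.2, SD, n = 8). The ranges overlapped, and the Clu-Cilp sum was the lower one on 7 of 8 plates, plate 2 being the exception. The difference was -0.99 (SE 0.27, adjusted p = 0.0058), and the exact sign-flip permutation test gave a two-sided p of 0.023. It was -0.72 (adjusted p = 0.16) on plates 1, 2 and 4 and -1.16 (adjusted p = 0.018) on plates 5 to 9, and -0.73 (adjusted p = 0.072) with cells divided by *Clu* against *Cnmd* alone.

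In the *Lepr* lineage *Emilin1* stood at 69.1 CPM on plate 1 and 133 CPM on plate 2, below all Cnmd plates and among the Clu-Cilp plates. The value was -1.48 (SE 0.43, adjusted p = 0.016) against the Cnmd group and -1.29 (SE 0.40, adjusted p = 0.023) against all *Grem1*-lineage cells. Both calls were lost without *Lepr* plate 1 (-1.11, adjusted p = 0.15, and -0.98, adjusted p = 0.18). Without TMM factors the values were -1.13 (adjusted p = 0.061) and -0.73 (adjusted p = 0.19), while the distance of the latter from the median of all genes was -1.18 with and without TMM factors. Over all alternative settings, the call was lost in 4 of 21 against the Cnmd group and in 5 of 21 against all *Grem1*-lineage cells. Against the Clu-Cilp group *Emilin1* had -0.46 (SE 0.49, adjusted p = 0.48), with the opposite sign, 0.22, without TMM factors. An *Emilin1* UMI was found in 48.1% of Cnmd cells (42.1 to 54.3%), 13.0% of Clu-Cilp cells (9.95 to 16.7%) and 8.75% of *Lepr*-lineage cells (4.87 to 14.2%). At 529 UMIs the shares were 16.0% (11.8 to 20.9%), 5.81% (3.76 to 8.52%) and 6.49% (5 of 77, 2.14 to 14.5%), and single plates overlapped, at 3.03 to 28.6% in Cnmd and 0 to 16.0% in Clu-Cilp cells.

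*Efemp1* rested on 34 UMIs in all and was below the filter on low counts in all 4 comparisons. The lowest Cnmd plate had 9.19 CPM, the median was 21.6, and plates 4 and 8 had 128 and 120 CPM from 9 UMIs each. In the Clu-Cilp group plates 4 and 8 held 1 UMI each and the other 6 held none. The Cnmd level was the higher one on 8 of 8 plates (mean log2 difference -1.61 ± 0.68, exact sign-flip permutation test, two-sided p = 0.0078). On plates 1, 5, 6 and 9 the direction rests on 1 UMI in the Cnmd sum against 0 in the Clu-Cilp sum. The Cnmd sum was the larger one on these plates, and the p-value rests on them as well. The size rests on the added constant, since the difference was -0.66 with 50 in place of 10 CPM added, and 7 of 8 plates kept the direction (p = 0.016 in the same exact test) without the cells near the dividing line. Without the filter the fitted value was -2.95 (adjusted p = 0.0073). As counts *Efemp1* was 10.96 times as frequent in the Cnmd group (2.75 to 95.1), on 2 UMIs in the Clu-Cilp group. *Lepr* plates 1 and 2 had 11.5 and 48.5 CPM from 1 and 4 UMIs, within the range of the Cnmd plates. With cells thinned to 529 UMIs, 6 of 269 Cnmd cells (2.23%) and 2 of 413 Clu-Cilp cells (0.484%) held a UMI, and 0 of 77 *Lepr*-lineage cells did, which allows a share of up to 3.90%. Before thinning 3 of 160 *Lepr*-lineage cells held one, at a median depth of 512 UMIs, so that cells were lost to the depth limit itself.

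**Figure D4:**
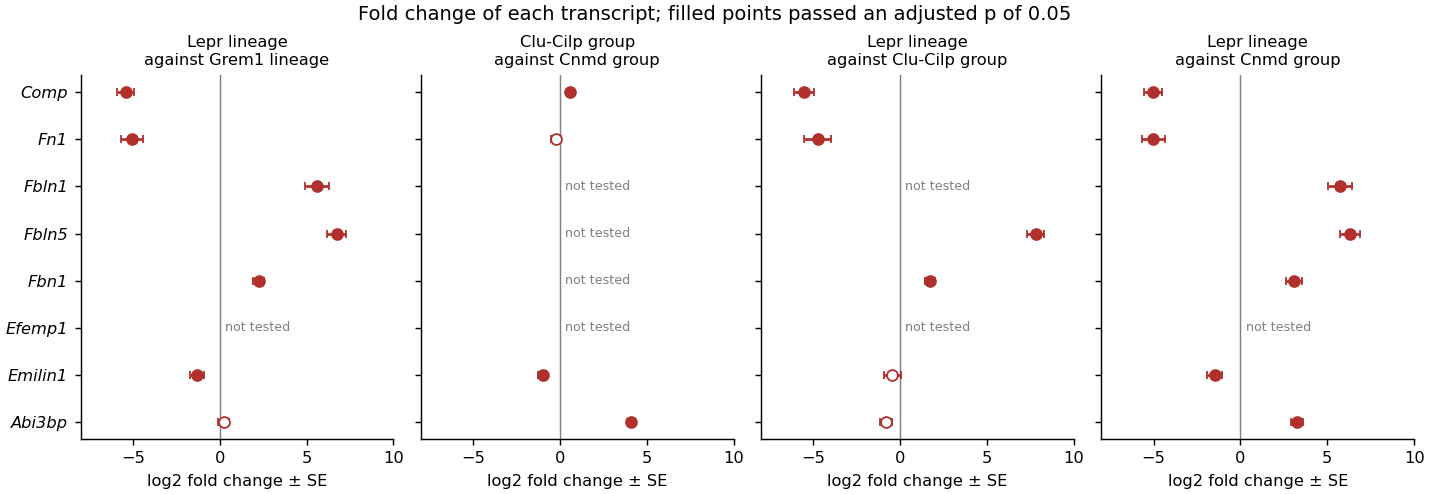
Log2 fold change of each transcript (horizontal axis, points with bars of 1 SE) in the 4 comparisons (panels), with filled points past an adjusted p of 0.05 and transcripts below the filter marked as not tested. *Comp* and *Fn1* lie between -5.52 and -4.75 in the 3 comparisons with the *Lepr* lineage, *Fbln5* lies at 6.32 or above, and *Abi3bp* lies at 4.11 between the *Grem1*-lineage groups.

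Of the 8 transcripts, 7 passed the filter in the comparison of the *Lepr* with the *Grem1* lineage, where 3 were higher in the *Lepr* lineage, 3 were lower and *Abi3bp* was not called. By direction, 12.2% and 16.8% of all genes tested were called higher and lower. Between the *Grem1*-lineage groups 4 passed the filter, with *Comp* and *Abi3bp* called higher in the Clu-Cilp group and *Emilin1* lower, against 19.5% and 21.6% of all genes. Between lineages *Fbln1*, *Fbln5* and *Comp* passed the filter only through the side where they were higher. The same held for *Abi3bp* and *Emilin1* between the *Grem1*-lineage groups. The transcripts were also chosen with earlier results of these data known, so set beside these shares the counts give no support.

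Only partners whose symbols fall within the shared part of the alphabet could be followed. Of 27 genes of elastic fibres and microfibrils, 11 were listed for both lineages and 3 were tested between lineages, with a median of -0.18 against -0.11 for all genes. *Fbln7*, a further fibulin, was lower in the *Lepr* lineage at 13.3 against 315 CPM (-4.43, adjusted p = 0.00032), and the other 2 did not pass. Between the *Grem1*-lineage groups 2 of these genes were tested, and *Efemp2*, which encodes fibulin 4, was lower in the Clu-Cilp group (-0.84, adjusted p = 0.013). Of 76 other matrix glycoproteins, 15 were listed and 7 were tested between lineages, with a median of -2.45. Of these 3 were lower in the *Lepr* lineage, among them *Cilp2*, a cartilage intermediate layer protein (-4.45, adjusted p = 3.25e-05), and *Edil3*, an integrin ligand (-3.75, adjusted p = 0.0011). *Ecm1* was higher there, at 600.4 against 72.6 CPM (3.04, adjusted p = 0.0014). Between the *Grem1*-lineage groups 3 were tested, and *Cilp2* (3.67, adjusted p = 3.06e-10) and *Ecm2* (2.22, adjusted p = 4.82e-07) were higher in the Clu-Cilp group. Of 17 receptors of fibronectin and related ligands, 2 were listed. *Cd47*, an integrin-associated protein that binds thrombospondin, was higher in the *Lepr* than in the *Grem1* lineage (0.70, adjusted p = 0.031) and higher in Clu-Cilp than in Cnmd cells (1.73, adjusted p = 1.12e-07).

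For the 6 transcripts with at least 100 UMIs, the genes of most like pattern were sought among 1767 candidates of the shared part of the alphabet by Pearson's r of log2 CPM over the 18 sums. These sums share plates and groups, so r is a description. *Comp* was most like *Chad*, which encodes the cartilage protein chondroadherin (r = 0.97), and within the groups r was 0.91. *Fn1* was most like *Acan* (0.96, and 0.89 within groups). *Emilin1* was most like *Bgn*, which encodes the small proteoglycan biglycan (0.81, and 0.71 within groups). *Fbln5* was most like *Esm1*, *Gdpd2* and *Adipoq*, each at 0.96 with at most 0.21 within groups, and *Abi3bp* was most like *Fgfr2*, *Cd14* and *Cd81* (0.94, 0.93 and 0.93, and 0.05, 0.30 and 0.49 within groups).

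In the mm10 genome *Comp* lies at chr8:70373558-70382066, *Fn1* at chr1:71585520-71653200, *Abi3bp* at chr16:56477878-56690135, *Fbn1* at chr2:125300594-125507993, *Fbln5* at chr12:101746565-101819055, *Fbln1* at chr15:85205949-85286535, *Emilin1* at chr5:30913402-30921277 and *Efemp1* at chr11:28853204-28926743. An exon of *Apol7d* overlaps *Fn1* and an exon of *Gm9913* overlaps *Fbn1*, each on the other strand, and whether the counting used strand is not given in the sources used here.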

How the data were processed

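Plate-based single-cell cDNA of 8 *Grem1*-lineage and 2 *Lepr*-lineage plates was analysed from 2 deposited tables, which per the labels hold UMI counts per gene and well. The submitters' processing notes name UMI-tools, STAR, featureCounts, SAMtools, Seurat and mm10, without versions. The transcripts and gene lists were chosen with earlier results of these data known.

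Counts of the genes listed for both lineages (40.9% of the *Lepr* UMIs) were used. The *Grem1* table used here ends, in alphabetical order, in an incomplete row among symbols that begin with Gm. That row was left out and later genes were not analysed here. Well barcodes follow the plate layout, 70 of 96 occurring on every plate. UMIs were summed per plate and group over at least 10 cells and tested with edgeR 4.0.16 (R 4.3.3) after filterByExpr and TMM scaling, with Benjamini-Hochberg adjustment over all genes tested. Adjusted p-values measure the spread between plates. DESeq2 1.42.0 was an alternative. The sign-flip test used log2(CPM + 10). Exact intervals used SciPy 1.17.1. The 4 genes that divide the groups were left out of tests between them, and 4 cells with equal UMIs on both sides went to the Cnmd group. Doublets were not called. Named genes were all 8 transcripts, per list and direction the 2 called genes of largest fold change (mean of 50 CPM or more), and the 3 most alike by Pearson's r.

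The fits were tested on simulated counts of a single dispersion and without plate pairing, unlike the data. Of planted log2 changes of 1 and 2, edgeR recovered 11% and 60% between lineages and 60% and 78% between the *Grem1*-lineage groups. For the *Lepr* lineage it recovered 24% and 74% against the Clu-Cilp group, and 14% and 73% against the Cnmd group. A value not called there is therefore no sign of equal levels. Plate numbers paired the *Grem1*-lineage groups: deviations of the 2 sums of a plate correlated at 0.187 to 0.454, all 8 above 0.1. Of the 8 transcripts, 5 matched a RefSeq promoter window (GRCm38.p6). Gene positions are from GENCODE (GRCm38).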

Additional observations from a re-analysis of the deposited data

Results flagged for a closer look

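In 16 groups of 8 plates, Dixon's test set 1 plate apart in 2 groups. Both groups concerned *Fbln5*, which had no UMI on most of their plates. The chance rate of about 1 of 20 groups does not hold for such counts. A single UMI among plates without any is always set apart. In the Clu-Cilp group plate 5 had 16.5 CPM from 1 UMI and the other plates had none. In the Cnmd group plate 8 had 66.4 CPM from 5 UMIs and the next highest plate had 11.1 CPM.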

How the results depend on the processing

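The 24 fold changes cover the 8 transcripts without *Efemp1*, which was below the filter. Over 499 alternatives to them, 479 kept direction and side of the threshold, 14 lost and 4 gained a call, and 2 turned direction. Between the *Grem1*-lineage groups, requiring a *Cnmd* UMI in Cnmd cells and allowing sums of 5 cells changed no sum. These settings repeat the main fit and count among those kept. *Abi3bp* between lineages ran from -0.20 (without *Lepr* plate 2) to 0.43 with 1 plate left out, and *Emilin1* between the *Lepr* lineage and the Clu-Cilp group was 0.22 without TMM factors. *Abi3bp* between the *Lepr* lineage and the Clu-Cilp group was called at the gene minimum counted over shared genes (-0.95, adjusted p = 0.030). The cause was not tested.

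Genes called between lineages numbered 853, 529 to 850 with 1 plate left out, 489 on plates 1 and 2 of each lineage with a replicate block and 451 without it. The *Lepr* lineage against the Clu-Cilp group gave 597 calls, 389 to 600 with 1 plate left out, and on plates 1 and 2 it gave 316 with the block and 351 without. Against the Cnmd group these were 641, 429 to 640, 271 and 407. Between the *Grem1*-lineage groups 440 genes were called, 380 to 437 with 1 plate left out, 704 with no filter, 181 in thinned cells, 235 on plates 1, 2 and 4, and 509 with the replicate block, which changed no call of the 8 transcripts.

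Library sizes without TMM factors, an alternative added after seeing the data, moved the share of calls that were higher from 42.0% to 72.9% between lineages, from 47.5% to 21.99% between the *Grem1*-lineage groups, from 45.9% to 76.4% against the Clu-Cilp group and from 49.1% to 68.3% against the Cnmd group. The median of all genes moved to 0.45, -0.38, 0.67 and 0.34.

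In cells thinned to 529 UMIs, without the shallower ones (83 of 160 in the *Lepr* lineage), the shares of cells with a UMI were 83.1% and 81.0% for *Comp*, 68.5% and 81.0% for *Fn1*, 4.84% and 3.35% for *Fbn1*, 5.81% and 16.0% for *Emilin1* and 32.2% and 4.46% for *Abi3bp* in Clu-Cilp and Cnmd cells, and 42.9% for *Fbln5* and 0% for *Efemp1* in the *Lepr* lineage. The log odds ratio of *Fn1* with *Abi3bp* was 0.14 without thinning. Counts of a few UMIs limit *Fbln1*, *Fbln5* and *Efemp1*, and the 2 *Lepr* plates limit all comparisons with that lineage.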
